A study of Mus musculus with 2 samples.

Results

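The genes described here are 10 heat shock genes that encode chaperones of the cytosol and of the mitochondrial matrix: Hspa1a, Hspa1b, Dnajb1, Hsph1, Hspb1, Hsp90aa1, Hspa8, Hspa4, Hspd1 and Hspe1. Each was read through every probe set of the expression array that is annotated to that gene symbol alone, 26 of 45101 probe sets in all. All 10 genes had at least 1 such probe set, of 18193 genes measured this way. Pancreatic islets of transgenic and of control mice, all males of 6 weeks, were compared. In the labels the tissue is given as islets and the source as beta cells. The transgenic mice overexpress 2 microRNAs, miR-200c and miR-141, and the control mice were C57Bl6. The labels state no treatment of either sample between islet extraction and RNA extraction, and do not give the number of mice in a sample. The transgenic sample is titled Ripmir_islets, but the promoter that drives the transgene is not spelled out.

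There was 1 array per genotype (n = 1), so values carry no error, differences were not checked in replicates, and no test was run. Values are log2 expression values made with RMA, a method that removes background, equalises the distributions of the arrays and merges the probes of each probe set into 1 value. A difference is the transgenic minus the control value, and 1 on this scale is 2-fold. Statements of higher and lower hold for these 2 arrays alone. The genes were chosen by their biology together with their transgenic minus control differences on these same arrays, so counts of them support nothing and are given as a description. Each sample is whole islet RNA, in which fewer cells of a type and less RNA per cell cannot be told apart.

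Heat shock proteins are chaperones that bind unfolded chains, keep them from clumping and help them fold. When unfolded protein accumulates in the cytosol, the transcription factor HSF1 forms trimers and binds heat shock elements, arrays of the short unit GAA in alternating orientation, in the promoters of its target genes. Some targets, such as the HSP70 genes Hspa1a and Hspa1b, are close to silent in unstressed cells and are strongly induced by heat, oxidants or proteasome inhibition. Others, such as Hspa8, are made at all times as part of ordinary protein folding.

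The members fall into 3 groups by textbook knowledge of their regulation. Hspa1a and Hspa1b are strictly inducible. Dnajb1, Hsph1, Hspb1 and Hsp90aa1 are inducible from a basal level, and Hspa8, Hspa4, Hspd1 and Hspe1 are treated as constitutive, although heat raises Hspd1 and Hspe1 too. The overexpressed microRNAs are shown first because they define the transgenic sample. Their mature sequences are from RefSeq on GRCm38.p6, with the seed, bases 2 to 8, in capitals.
mmu-miR-141-3p: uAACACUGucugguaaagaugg
mmu-miR-200c-3p: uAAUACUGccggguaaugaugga
The overexpression itself was not checked, since no probe set used here is annotated to either microRNA.

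Promoter windows of RefSeq on GRCm38.p6, which run from 250 bases before to 50 bases after a gene's start, were found for 8 of the 10 genes and not for Hspa8 and Hsp90aa1. They were searched for pairs of heat shock units, GAANNTTC or TTCNNGAA, each of which reads the same on both strands. At least 1 such pair is present in 15.1% of all 32851 windows of 300 bases in the table. Triplets of units, GAANNTTCNNGAA or its reverse complement TTCNNGAANNTTC, contain overlapping pairs and are present in 0.603% of all windows. A pair was found in windows of 6 of the 8 genes and a triplet in those of 3, Hsph1, Hspd1 and Hspe1. A match is a description of the sequence only. The 4 windows below were chosen because they show the range of matches among the members, with matching bases in capitals.
Hspa1a: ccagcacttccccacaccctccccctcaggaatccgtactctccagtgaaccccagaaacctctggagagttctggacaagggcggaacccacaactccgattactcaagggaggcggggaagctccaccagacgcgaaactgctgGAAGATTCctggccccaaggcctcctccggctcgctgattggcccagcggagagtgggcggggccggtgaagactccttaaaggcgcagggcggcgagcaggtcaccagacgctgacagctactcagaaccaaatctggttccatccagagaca
Dnajb1: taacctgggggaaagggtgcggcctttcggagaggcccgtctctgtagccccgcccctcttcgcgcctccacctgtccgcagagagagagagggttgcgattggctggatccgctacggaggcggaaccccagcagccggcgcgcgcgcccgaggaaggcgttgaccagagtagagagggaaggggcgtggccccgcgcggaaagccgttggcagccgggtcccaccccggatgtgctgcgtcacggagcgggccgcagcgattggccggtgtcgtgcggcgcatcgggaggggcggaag
Hsph1: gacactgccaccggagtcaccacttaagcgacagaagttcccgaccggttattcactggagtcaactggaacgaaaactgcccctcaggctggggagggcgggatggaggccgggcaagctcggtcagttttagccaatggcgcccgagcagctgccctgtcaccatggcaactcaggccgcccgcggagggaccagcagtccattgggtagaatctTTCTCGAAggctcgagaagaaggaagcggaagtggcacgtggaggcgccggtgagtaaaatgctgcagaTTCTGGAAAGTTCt
Hspe1: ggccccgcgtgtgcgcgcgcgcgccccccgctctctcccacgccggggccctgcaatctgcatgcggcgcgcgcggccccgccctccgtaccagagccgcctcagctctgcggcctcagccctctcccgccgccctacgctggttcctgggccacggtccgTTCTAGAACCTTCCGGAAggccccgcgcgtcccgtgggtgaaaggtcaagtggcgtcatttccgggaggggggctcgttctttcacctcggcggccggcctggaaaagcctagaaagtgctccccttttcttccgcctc
The Hspa1a window lies at chr17:34972107-34972406 on the minus strand and holds 1 pair, which begins 104 bases before the gene's start. The window of Hspa1b, at chr17:34959189-34959488 on the minus strand, is identical to it at 296 of 300 bases and has the pair at the same place. With positions counted from 1 at the 5′ end of the window, the substitutions from Hspa1a to Hspa1b are C44T, T47C, T249G and C276T, none of them within the pair. The Dnajb1 window, at chr8:83607925-83608224 on the plus strand, has no match, nor has the second Dnajb1 window, at chr8:83608298-83608597. The bases between these windows were not searched. Only exact units were searched, so a window without a match may still hold an imperfect element. The Hsph1 window, at chr5:149636287-149636586 on the minus strand, has a pair 33 bases before the start and a triplet that begins at base 37 after it. The Hspe1 window, at chr1:55087898-55088197 on the plus strand, has 4 units in a row over 18 bases, which begin 89 bases before the start. Hspd1 is the neighbouring gene on the opposite strand, and one of its 2 windows shares 285 bases with that of Hspe1, so the same 18 bases stand in both promoters. Hspb1 has 2 separate pairs, 117 and 97 bases before its start, and Hspa4 has none.

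**Figure D1:**
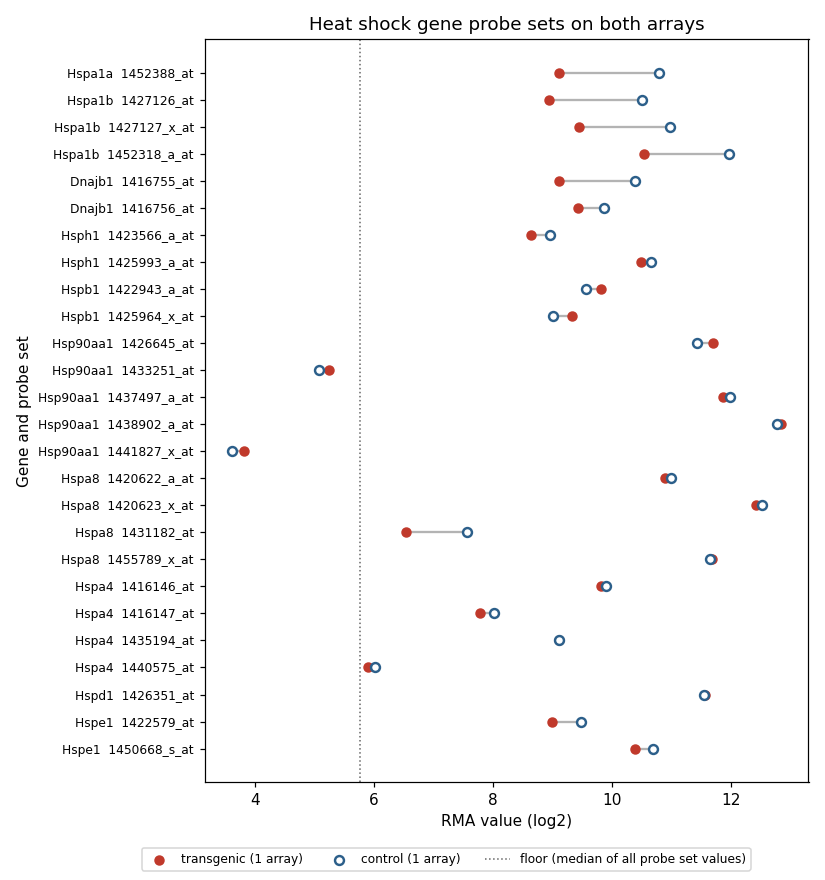
RMA values (log2, x axis) of the 26 probe sets of the 10 heat shock genes on the transgenic array (filled points) and the control array (open points), 1 array each, with the floor of 5.76 as a dotted line. The 4 probe sets of Hspa1a and Hspa1b and 1 of the 2 of Dnajb1 show the widest gaps, with the transgenic value lower in each.

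The strictly inducible HSP70 genes were the members furthest lower in transgenic islets. Hspa1a and Hspa1b encode nearly the same protein, a chaperone that binds and releases unfolded chains in a cycle driven by ATP. The 1 probe set of Hspa1a read 9.11 on the transgenic array and 10.80 on the control array, a difference of -1.69, or 3.23-fold lower. The probe set 1427126_at of Hspa1b read 8.95 on the transgenic array and 10.50 on the control array, a difference of -1.55. For 1427127_x_at the values were 9.45 on the transgenic array and 10.98 on the control array, a difference of -1.53. The brightest one, 1452318_a_at, read 10.54 on the transgenic array and 11.96 on the control array, a difference of -1.43 or 2.69-fold lower. All 4 probe sets of the pair had a transgenic value lower by at least 1.43. These 4 read the same RNA samples and are no replicates of each other. Probe sequences were not used here, so how far each probe set binds the transcript of the other, near-identical gene was not tested, and the values of the 2 loci are uncertain as separate values. Their levels on the transgenic array stayed well above the floor of 5.76, which is the middle value of both arrays, so background did not limit these differences. All 4 probe sets also read above 7.81, the 75th percentile of the values of both arrays, in transgenic and in control islets. The pair was thus not close to silent in either sample, and the transgenic values were the less high ones.

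Dnajb1 was the only inducible gene with a basal level that passed 2-fold, and its probe sets differed in size. It encodes the J protein HSP40, which delivers clients to HSP70 and stimulates its ATPase. The probe set 1416755_at read 9.11 on the transgenic array and 10.39 on the control array, a difference of -1.28 or 2.43-fold lower. The other, 1416756_at, read 9.43 on the transgenic array and 9.87 on the control array, a difference of -0.45. Both were lower, but they lay 0.83 apart, against a median gap of 0.28 between the probe sets of a gene over 5180 genes. With both averaged, Dnajb1 stood at -0.86 and no longer passed 2-fold.

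The other inducible members had small differences of both signs. Hsph1, the HSP110 protein that exchanges the nucleotide of HSP70 and helps to dissolve aggregates, had differences of -0.16 and -0.32. Its brighter probe set read 10.50 on the transgenic array and 10.66 on the control array, and the other 8.64 in transgenic and 8.96 in control islets. Hspb1, the small heat shock protein that holds unfolded chains without ATP, stood on the opposite side. Its probe sets read 9.82 and 9.33 on the transgenic array and 9.57 and 9.01 on the control array, differences of 0.25 and 0.33. Hsp90aa1, the stress-inducible form of cytosolic HSP90, had 5 probe sets, of which 2 lay below the floor on both arrays. Its brightest read 12.85 on the transgenic array and 12.78 on the control array, and the differences of its 3 probe sets past the floor ran from -0.12 to 0.28.

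The constitutive members lay close to each other, with 1 exception among their probe sets. Hspa8, the HSC70 protein of housekeeping folding and of clathrin uncoating, read 12.42 on the transgenic array and 12.53 on the control array on its brightest probe set. That difference was -0.11, and 2 further probe sets gave -0.10 and 0.033. The probe set 1431182_at stood apart, with 6.54 on the transgenic array and 7.57 on the control array, a difference of -1.02. It was the dimmest of the 4, and its gap of 1.06 to the highest was the widest within any member. The files do not say which part of the transcript it reads. Hspa4, another HSP110-type exchange factor, had 4 probe sets between -0.24 and 0.0023, the brightest with 9.83 on the transgenic array and 9.90 on the control array.

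The mitochondrial pair consists of Hspd1, the HSP60 chaperonin that encloses folding proteins in the matrix, and Hspe1, the HSP10 ring that caps it. Hspd1 read 11.56 on both arrays, a difference of 0.0037. Hspe1 read 10.39 on the transgenic array and 10.70 on the control array on one probe set. On the other it read 9.00 in transgenic and 9.48 in control islets. Its differences were -0.31 and -0.48. These genes share the promoter region shown above. Hspe1 was 1.24-fold lower on its brighter probe set, and the values of Hspd1 were nearly equal. For scale, probe sets of the same gene lay a median of 0.28 apart on the array.

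Each gene was then represented by its brightest probe set, that of highest mean over both arrays. Of the 10 members 3 were at least 2-fold lower, Hspa1a, Hspa1b and Dnajb1, and none was 2-fold higher. Over all 12143 genes past the floor, 0.511% were at least 2-fold lower and 2.51% at least 2-fold higher. The members were proposed from this same contrast, so nothing is read from the difference between the shares. The median difference of the members was -0.14, against 0.029 over all genes, and 7 were negative, against 45.7% of all genes. At 1.5-fold the same count of 3 lower and 0 higher members was found, against 3.14% and 7.73% of all genes. Among the probe sets, 24 of 26 passed the floor, 6 of these were at least 2-fold lower and none higher, against 0.784% and 2.15% of all 20548 probe sets past the floor. The members did not fill the range between the calls. The nearest probe set within the 2-fold rule stood at -1.02 (Hspa8) and the nearest one outside it at -0.48 (Hspe1). Among genes these were -1.28 (Dnajb1) and -0.31 (Hspe1).

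**Figure D2:**
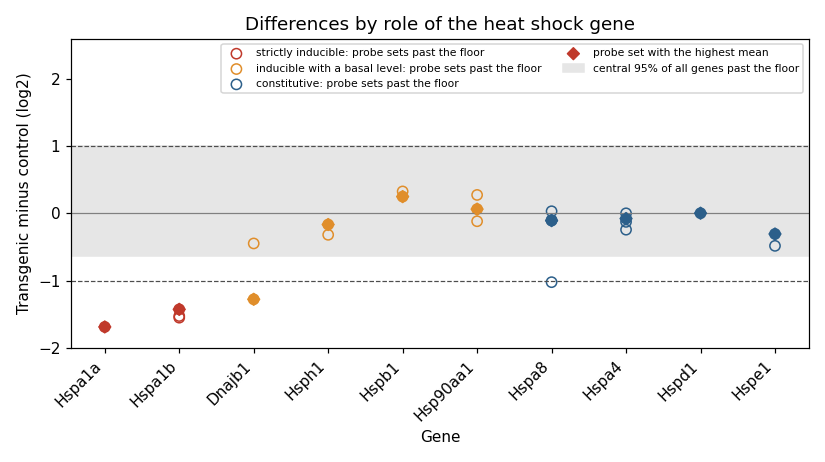
Transgenic minus control difference (log2, y axis) of each heat shock gene, coloured by role, with open circles for probe sets past the floor and diamonds for the probe set with the highest mean. The grey band is the central 95% of all genes past the floor (-0.63 to 1.0) and dashed lines mark 2-fold. Hspa1a, Hspa1b, Dnajb1 on 1 of its probe sets and 1 probe set of Hspa8 lie below the band.

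The contrast between roles rested on the strictly inducible pair. The median difference was -1.56 for the 2 strictly inducible genes, -0.050 for the 4 inducible genes with a basal level and -0.091 for the 4 constitutive genes. The strictly inducible pair thus lay 1.47 below the constitutive genes, a 2.77-fold relation, with every probe set of the pair lower than every probe set of the constitutive genes. All 6 inducible genes together had a median of -0.72, which lay 0.63 below the constitutive genes. Without Hspa1a and Hspa1b that gap was 0.041 in the opposite direction. The gap was -0.21 when probe sets were used in place of genes. The 4 inducible genes with a basal level were spread widely. Dnajb1 lay near the strictly inducible pair, Hsph1 at -0.16 lay within the range of the constitutive genes (-0.31 to 0.0037), and Hsp90aa1 at 0.064 and Hspb1 at 0.25 lay above it.

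**Figure D3:**
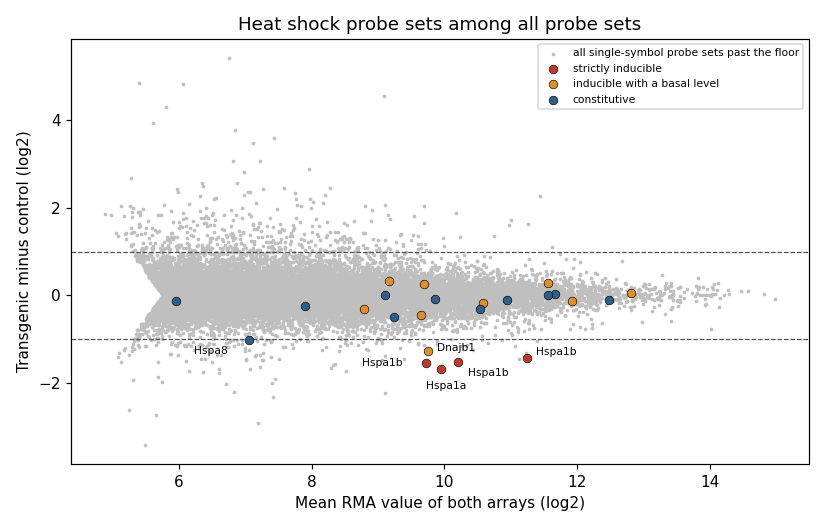
Transgenic minus control difference (log2, y axis) against the mean RMA value of both arrays (log2, x axis) for the 20548 single-symbol probe sets past the floor (grey), with the 24 heat shock probe sets coloured by role. Dashed lines mark 2-fold. Those of Hspa1a, Hspa1b and Dnajb1 past 2-fold have means between 9.73 and 11.25.

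Counted from the lowest difference on the brightest probe set, Hspa1a stood 7th, Hspa1b 17th and Dnajb1 20th of 12143 genes. The next member, Hspe1, stood at position 1479. The members were chosen with these differences known, so the ranks are a description only. The rank of Dnajb1 holds for 1416755_at alone, since its other probe set stood at -0.45. Subtraction of a trend of the difference on the level, or a second quantile normalization, left Hspa1a between -1.70 and -1.69. Both kept all 3 genes past 2-fold on their brightest probe sets, but they use the same 2 arrays.

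Other genes of the heat shock system were described from lists of general knowledge, which exclude the 10 members. Of 89 genes past the floor on the lists other than those of endoplasmic reticulum chaperones and immediate early genes, 1 was at least 2-fold lower and 1 at least 2-fold higher, against 0.511% and 2.51% of all genes. Their median difference was -0.0084, with 46 negative, against 45.7% of all genes. The factor Hsf2 read 5.97 on the transgenic array and 6.10 on the control array, just above the floor. Hsbp1, which binds HSF1 and restrains it, stood at 0.19, with its other probe set at 0.49. No value is given for Hsf1 or for Hsp90ab1, the constitutive cytosolic HSP90, since neither was the sole symbol of a probe set.

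**Figure D4:**
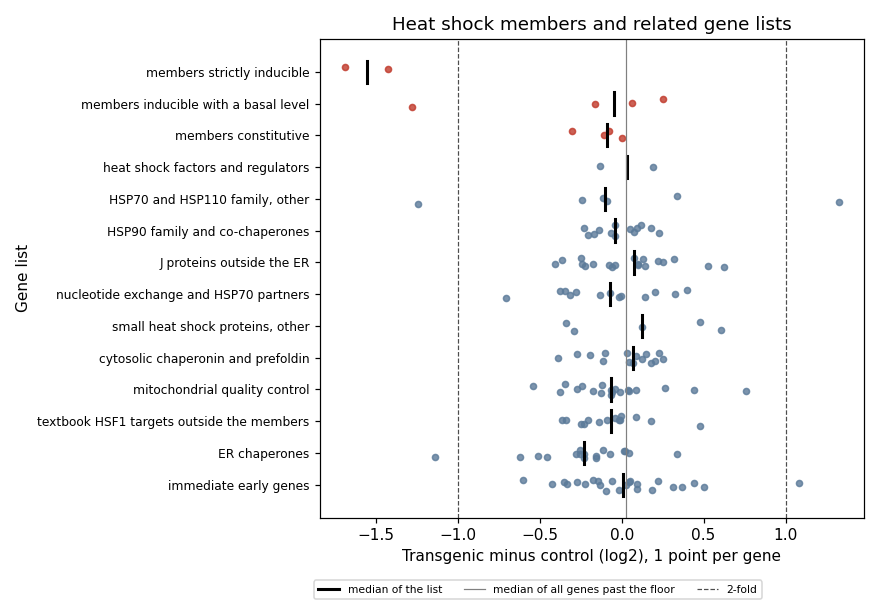
Transgenic minus control difference (log2, x axis) of each gene past the floor in the 3 groups of heat shock members (red) and 11 related lists (blue), 1 point per gene, with the median of each list as a black bar. Only the strictly inducible members, which were chosen with their differences known, have a median beyond 2-fold (dashed lines).

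Textbook targets of HSF1 outside the members mostly had small negative differences. Of 14 past the floor 11 were negative, against 45.7% of all genes, with a median of -0.064 and none past 2-fold in either direction. Dnajb4, a J protein, stood at -0.36, the small heat shock protein gene Hspb8 at -0.34 and Dnaja1, the main J partner of HSC70, at -0.25. The 2 other probe sets of Dnajb4 stood at -0.22 and 0.19. Stip1 (HOP), which links HSP70 to HSP90, stood at -0.23. Bag3, an exchange factor of selective autophagy that heat strongly induces, read 9.576 on the transgenic array and 9.578 on the control array. Cryab (alphaB-crystallin) stood on the other side at 0.48, with its second probe set at 0.22. Hspa4l, an HSP110 relative, stood at -0.089.

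Within the wider HSP70 family the values were mixed. Hspa13, an atypical HSP70 bound to microsomal membranes, read 9.82 on the transgenic array and 11.06 on the control array, 2.37-fold lower, with 3 other probe sets between -1.24 and -0.50. Hspa12a, a distant HSP70 relative, read 8.28 on the transgenic array and 6.95 on the control array, 2.51-fold higher, with 2 other probe sets at 0.34 and 0.91. With probe sets averaged per gene neither passed 2-fold. Hspa9 (mortalin), the HSP70 of the mitochondrial matrix, stood at -0.25, and its other probe sets at -0.55 and -0.39. Its exchange factor Grpel1 stood at -0.38. Hspa2 stood at -0.11 and Hspa14 at 0.34, with the other probe sets of Hspa14 at -0.093 and 0.27. Hspa1l, the third gene of the Hspa1 cluster, was below the floor on both arrays (3.65 on the transgenic array and 4.10 on the control array).

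Of the other co-chaperones, none passed 2-fold. The 13 genes of the HSP90 family and its partners ran from -0.23 (Stip1) to 0.22 (Tomm34), with a median of -0.040 and Fkbp4, an immunophilin of steroid receptor complexes, at -0.21. The 19 J proteins had a median of 0.077. Dnajc9, a histone chaperone, was the highest at 0.62, followed by the mitochondrial Dnajc15 at 0.53, and Dnajc5, the cysteine string protein of secretory vesicles, was the lowest at -0.41. The other probe sets of Dnajc5 ran from -0.51 to 0.11. The 13 exchange factors and HSP70 partners had a median of -0.071, with Bag5 at -0.71 and Bag2 at 0.40. The second probe set of Bag5 had the opposite sign, at 0.21. Of the small heat shock proteins Hspb11, a subunit of intraflagellar transport, stood at 0.61.

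The subunits of the cytosolic chaperonin, which folds actin and tubulin, and of prefoldin, which hands clients to it, had a median of 0.065 over 15 genes. Cct2 was the highest at 0.25. Pdcl3 at -0.39 and Pfdn4 at -0.28 were the lowest. In mitochondrial quality control 13 of 19 genes were negative, against 45.7% of all genes, with a median of -0.063. Atf5, a transcription factor of the mitochondrial unfolded protein response, stood at -0.54, Spg7, a subunit of an inner membrane protease, at 0.76, and the import receptor gene Tomm70a at 0.44. The other probe sets of Tomm70a ran from -0.23 to 0.25.

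The chaperones of the endoplasmic reticulum, which answer to another stress pathway, had the lowest median of the 11 related lists. Of 17 genes 13 were negative, against 45.7% of all genes, with a median of -0.23. At -1.14, Creld2 was the 1 gene at least 2-fold lower, against 0.511% of all genes. Sdf2l1 stood at -0.62 and Dnajc10 at -0.51. Hspa5 (BiP), the HSP70 of that compartment, read 13.41 on the transgenic array and 13.65 on the control array, Hsp90b1 (GRP94) stood at -0.23 with its other probe set at 0.27, and Hyou1, the HSP110 relative, stood at -0.28. The strictly inducible cytosolic pair lay further down than any of these 17 genes, the lowest being Creld2. That pair was chosen with its differences on these arrays known, so nothing is read from this order. Immediate early genes, which many acute stimuli raise, had a median of 0.0043 over 24 genes. Fos stood at -0.60, Jun at -0.17 with its other probe set at 0.47, Atf3 at 0.22 and Egr1 at 0.091. Egr2 stood at 0.50, with its control value of 5.82 near the floor. Egr3 was the 1 gene at least 2-fold higher, at 1.08, against 2.51% of all genes, and its other probe set stood at -0.033.

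The labelled tissue was checked on its markers. The insulin gene Ins2 read 14.95 on the transgenic array and 15.02 on the control array, and 12 of 15 listed beta cell markers passed the floor, with a median of 0.014 and none past 2-fold. The furthest was Ucn3, a peptide of mature beta cells, at -0.81. The endocrine markers of other islet cells had a median of 0.055 over 8 genes. Digestive enzyme genes of acinar cells were also bright on both arrays. Cela2a, an elastase, read 14.19 on the transgenic array and 13.93 on the control array, and the 9 acinar markers past the floor had a median of 0.10. Most listed macrophage, stellate and fibroblast genes read higher on the transgenic array. With 1 array per genotype, an effect of genotype could not be told apart from other differences between the samples. Of 13 macrophage markers past the floor 12 were positive (median 0.81) and 3 at least 2-fold higher. Over all 12143 genes past the floor 6584 were positive and 2.51% at least 2-fold higher. The summed signal of the macrophage markers on the linear scale was 8098 on the transgenic array and 5581 on the control array. Of 9 stellate and fibroblast markers 7 were positive (median 0.85) and 2 at least 2-fold higher, with sums of 7441 on the transgenic array and 4100 on the control array. Itgam of the first list, and Col1a1 and Pdgfra of the second, lay below the floor on both arrays. Lum of the second list lay below the floor on the control array alone. It is counted among the 7 positive markers, and its difference, which background limits, is the median of 0.85. The lists of ductal (median 0.17 over 7 genes), endothelial (0.072 over 9) and lymphocyte markers (-0.14 over 9) had medians nearer to 0. Single markers among them differed more, with Prom1 of the ductal list 2.15-fold higher and Pecam1 of the endothelial list at 0.88. The part of these cells in the heat shock differences was not tested. The 24 poly-A spike control probe sets of the array all gave more signal on the transgenic array (median difference 1.51). The gap between 3′ and 5′ probe sets, which widens as RNA degrades, was 1.21 on the transgenic array and 1.09 on the control array for Actb. For Gapdh it was 0.55 on the transgenic array and 0.68 on the control array. The part of RNA amount and integrity in the differences was not tested either.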

How the data were processed

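The deposited log2 values are RMA values from Affymetrix Expression Console, per the submitters' processing notes, and no version is given in the sources used here. Islet RNA of 2 samples was measured, 1 array each, and genotypes were taken from the labels. The number of arrays limits the precision. Of 45101 probe sets 34945 had 1 gene symbol in the platform annotation (932 had several, 9160 none and 64 were array controls), and 34741 of them matched the GRCm38.p6 gene table by Entrez identifier. A gene was represented by its probe set of highest mean, kept when at least 1 value reached the floor of 5.76. Differences were transgenic minus control. With 1 array per genotype no test was run. The members, roles and lists were chosen with earlier results of these data known. Named genes were all members, 18 genes fixed by name where measured, and the 3 of each related list, marker lists excepted, furthest from 0. Others were chosen after their values were seen. The calculation was tested on simulated data. Python 3.11.15, numpy 2.4.6, pandas 2.3.3, statsmodels 0.14.6 and matplotlib 3.10.9 were used. Alternatives were other floors, averaged probe sets, leaving out the _s, _x and _a classes, other role groups, a 1.5-fold rule, renewed quantile normalization and removal of a lowess trend (span 0.3).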

Additional observations from a re-analysis of the deposited data

How the results depend on the processing

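With 1 array per genotype no replicate could be left out. No paired analysis was possible because each group has 1 sample. An alternative value was taken as moved when it differed by more than 0.28, the median gap between probe sets of a gene, or a count when it changed by more than 1.5 times. The count of members at least 2-fold lower ran from 2 (probe sets averaged, which lost Dnajb1) to 4 (without the _s, _x and _a classes, which brought in Hspa8 through 1431182_at), and the count higher was 0 under each alternative. The median of the strictly inducible pair ran from -1.62 to -1.56. Leaving out those classes moved the median of inducible genes with a basal level to -0.50, since 2 of its 4 genes were left. The gap between all inducible and constitutive genes moved to -0.35 with averaged probe sets, -1.14 without those classes, -1.20 with Hsp90aa1 as constitutive, 0.041 without Hspa1a and Hspa1b, and -0.21 over probe sets. Of 278 further values for single members and lists, 13 moved. A change of sign was counted only for differences of at least 2-fold in the main setting, and none of these changed sign. Smaller values did change sign. The median of the other small heat shock proteins was 0.12 in the main setting and -0.082 without the _s, _x and _a classes. Signal near the floor limits the differences of Hsf2, of Egr2, of the marker Lum and of the dimmest probe set of Hspa4.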

Other observations

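Hspa1a and Hspa1b are neighbours in the major histocompatibility region, and values of the genes beside them are given as a description. Neu1, a lysosomal sialidase, stood at -0.18, Slc44a4, a choline transporter relative, at 0.026 and Ehmt2, a histone methyltransferase, at 0.23 on one side. On the other side, beyond Hspa1l, Lsm2, an RNA splicing factor, stood at 0.32 and D17H6S56E-5 at 1.27. Slc44a4 and Lsm2 lay near the floor of 5.76 (5.77 and 6.06 on the transgenic array and 5.74 for both on the control array), so background limits what their differences can show. Around Dnajb1, Tecr, an enzyme of fatty acid elongation, stood at -0.087, Ndufb7, a subunit of the respiratory chain, at 0.23 and Gipc1 at -0.074. Around the Hspd1 and Hspe1 pair, Coq10b, a coenzyme Q binding protein, stood at -0.38, the splicing factor gene Sf3b1 at -0.15, Mob4 at -0.0062 and Ankrd44 at -0.64. Neighbours were taken from the order of protein-coding genes in the GRCm38.p6 gene table, up to 3 steps to each side.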
